A study of Homo sapiens with 12 samples.

Results

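The response of HCT116 cells to prolonged hypoxia was compared with their early response: 3 libraries from cells held at 1% O2 for 24 h were set against 3 libraries from cells held at 1% O2 for 2 h, 6 of the 12 libraries of the series. The libraries were chosen by the time label alone. HCT116 is an established human colorectal carcinoma line. In the remaining 6 libraries cells stayed at 21% O2 (0 h, 3 libraries) or spent 1 h at 1% O2 (3 libraries), and these served to tell which changes were already present at 2 h. Cells of every group were plated for 24 h before hypoxia began, received no further treatment that the labels name, and gave polyadenylated RNA for strand-specific paired-end libraries from 3 biological replicates. Hypoxia then ran for the stated time, which puts the harvest of the 24 h cells later after plating than that of the 2 h cells, so hours of hypoxia and hours after plating cannot be told apart, and in bulk RNA neither can a change in the number of expressing cells and a change per cell. Expression is given as FPKM, fragments per kilobase of transcript scaled to the mapped total of the library, which is a level per length, summed over the transcripts of each gene name. Differences are log2 fold changes of FPKM + 0.5 from limma, which understate the change of low genes, and a gene was called when the absolute log2 fold change was above 1 and the Benjamini-Hochberg adjusted p was under 0.01. FPKM keeps no read counts, so precision rests on the spread of 3 libraries in each group.

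When oxygen falls, the prolyl hydroxylases that mark HIF alpha subunits for destruction slow down, and the stabilised HIF dimer binds hypoxia response elements, whose core reads ACGTG or GCGTG, at genes for glycolysis, angiogenesis, pH control and mitophagy. Transcripts of immediate early genes, such as FOS and EGR1, are made within minutes of a stimulus and are short-lived. Long hypoxia is also known to slow DNA replication and ribosome production in cultured tumour cells.

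Across genes, Pearson's r on the log2 scale was 0.963 to 0.986 between libraries of 1 group and 0.920 to 0.943 between 2 h and 24 h libraries; genes are not independent replicates. Short transcripts of less than 300 bases took up 74.5% to 85.9% of all FPKM at 2 h and 64.9% to 87.6% at 24 h. At 0 h they took up 57.0% to 70.4%, below every 2 h library. Of 10 colorectal epithelial markers, VIL1, CDX1 and CEACAM5 lay below the filter on low values and the summed level of the list over all transcripts was 2064 to 2379 FPKM at 2 h and 2497 to 2736 at 24 h, carried by KRT8, KRT18, KRT19 and EPCAM. At 0 h the sum was 2006 to 2829 FPKM. Against 2 h, KRT19 was higher in every 24 h library and EPCAM lower, while KRT8 and KRT18 overlapped. Of the intestinal markers below the filter, CDX1 and CEACAM5 were listed at 0 in all 6 libraries, while the intestinal factor CDX2 measured 7.28, 6.32 and 5.64 FPKM at 2 h and 5.30, 5.84 and 6.10 at 24 h. The sum over 13 markers of other cell types was 4.18 to 5.42 FPKM at 2 h and 15.6 to 20.4 at 24 h. Of these 13 only CD68 and COL1A1 passed the filter, and PTPRC, CD3E, PECAM1, CDH5 and HBB were listed at 0 in all 6 libraries. CD68, a macrophage marker at a locus with 8 gene names, was called higher at 24 h (log2 fold change 1.90 ± 0.23 (SE), adjusted p = 3.6e-05); what part it has in other results was not tested. Among the 2 h libraries replicate 3 stood apart: it was the highest of the 3 for 22 of 29 HIF target genes, against 33.7% of all genes tested. Why it differed was not tested, and refits without it are given here and with the results below. Without it the number of members called higher at 24 h against 2 h became 27 in place of 24 for HIF targets, 2 in place of 3 for ERK feedback regulators, 7 in place of 8 for JmjC demethylases and 6 in place of 5 for collagen hydroxylases and lysyl oxidases. The number called lower became 2 in place of 1 for HIF subunits and hydroxylases and for mitosis genes, and 9 in place of 8 for splicing genes. Changes in chaperones, immediate early genes and cholesterol synthesis are given with those lists.

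Between 2 h and 24 h of hypoxia 1085 genes were called higher, 6.89% of the 15758 tested, and 1274 were called lower, 8.08%. The median log2 fold change of all genes was -0.07, and 8717 genes had an unadjusted p under 0.05. Without 2 h replicate 3 the counts were 1166 and 1441. Of the 10971 protein-coding genes tested, 847 (7.72%) were called higher and 1047 (9.54%) lower, and of 965 long noncoding RNA genes 81 (8.39%) were higher and 59 (6.11%) lower. By comparison 2 h of hypoxia against 0 h gave 5 calls, all of them higher. Most of the called genes had thus moved little in the first hours: 787 of them (4.99% of all genes tested) were late only and higher, and 1017 (6.45%) late only and lower. Late only means called both against 2 h and against 0 h, with an absolute log2 fold change under 0.5 at 1 h and at 2 h against 0 h. These comparisons share the 24 h libraries, so the classes describe 1 set of values and are not independent.

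**Figure D1:**
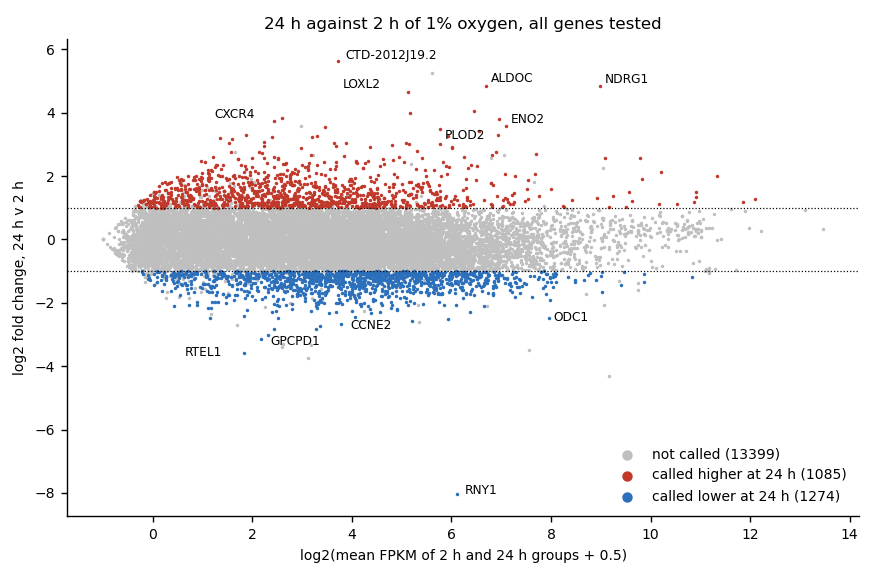
Log2 fold change of 24 h against 2 h of 1% O2 (vertical axis) by the log2 of the mean FPKM + 0.5 of both groups (horizontal axis), 1 point for each of the 15758 genes tested. Red points are the 1085 genes called higher and blue points the 1274 called lower; dotted lines mark a log2 fold change of 1 and -1, and the named genes are among those described in the text.

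Of 32 HIF target genes 29 passed the filter, and 24 of them were called higher at 24 h than at 2 h while 0 were called lower, against 6.89% and 8.08% of all genes. LOX, RORA and NDUFA4L2 lay below the filter. The median log2 fold change of the list was 2.24, with a range from 0.24 to 4.85, and its median at 2 h against 0 h had been 0.50. Without 2 h replicate 3, 27 of the 29 were called higher. NDRG1, a stress-induced gene widely used as a marker of hypoxia, measured 23.7, 30.2 and 51.1 FPKM in the 2 h libraries and 885, 897 and 1151 in the 24 h libraries (log2 fold change 4.85 ± 0.30 (SE), adjusted p = 3.6e-07). ANGPTL4, a secreted inhibitor of lipoprotein lipase, measured 4.33, 5.22 and 31.7 FPKM at 2 h and 130.0, 169.7 and 183 at 24 h (log2 fold change 4.05 ± 0.54 (SE), adjusted p = 7.2e-05). BNIP3, a mitophagy receptor on the outer mitochondrial membrane, rose from 27.7, 30.4 and 30.6 to 177, 235 and 206 FPKM (log2 fold change 2.77 ± 0.11 (SE), adjusted p = 3.0e-08). In each of these genes the lowest 24 h library was well above the highest 2 h library, although ANGPTL4 in 2 h replicate 3 already stood apart from its group.

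Some targets were reached only late. CA9, the membrane carbonic anhydrase that is a classic HIF target, was listed at 0 in all 2 h libraries and measured 4.36, 4.19 and 3.73 FPKM at 24 h. Its 2 h libraries thus gave nothing toward passing the filter on low values. EGLN3, a HIF prolyl hydroxylase, measured 1.88, 2.45 and 3.66 FPKM at 2 h and 32.2, 27.6 and 17.6 at 24 h (log2 fold change 3.05 ± 0.25 (SE), adjusted p = 2.1e-06), and its early log2 fold change was 0.46. P4HA1, a collagen prolyl hydroxylase, rose from 23.4, 21.1 and 21.7 to 176, 240.4 and 248 FPKM (log2 fold change 3.28 ± 0.14 (SE), adjusted p = 4.0e-08). These 3 genes were late only, as were 13 of the 29 HIF targets in all. Other targets had begun to move by 2 h and went on: VEGFA, the vascular growth factor, measured 15.2, 17.5 and 17.2 FPKM at 0 h, 28.5, 26.4 and 36.1 at 2 h and 71.3, 65.5 and 58.5 at 24 h (log2 fold change 1.10 ± 0.13 (SE), adjusted p = 3.6e-05). ANKRD37, an ankyrin repeat gene, measured 1.73, 1.82 and 1.84 FPKM at 0 h, 7.95, 9.32 and 35.4 at 2 h and 106, 137 and 88.3 at 24 h (log2 fold change 2.93 ± 0.41 (SE), adjusted p = 1.0e-04). The groups of both genes did not overlap at any step.

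Further members of the list also rose. PDK1, the kinase that shuts off pyruvate dehydrogenase, measured 3.78, 3.74 and 4.28 FPKM at 2 h and 17.4, 18.1 and 25.6 at 24 h (log2 fold change 2.22 ± 0.23 (SE), adjusted p = 1.1e-05). ADM, the vasodilator peptide adrenomedullin, measured 42.7, 63.2 and 162 FPKM at 2 h and 219.6, 298 and 329 at 24 h (log2 fold change 1.87 ± 0.42 (SE), adjusted p = 0.0029). INSIG2, which holds back cholesterol synthesis, measured 11, 10.7 and 12.9 FPKM at 2 h and 87.9, 108 and 95.0 at 24 h (log2 fold change 3.02 ± 0.11 (SE), adjusted p = 1.6e-08). ADM in 2 h replicate 3 lay close to the 24 h range, and its call was lost without 2 h replicate 1 (1.46, adjusted p = 0.014), 2 h replicate 2 (1.74, adjusted p = 0.014), 24 h replicate 2 (1.82, adjusted p = 0.012) or 24 h replicate 3 (1.75, adjusted p = 0.012). INSIG2 had an early log2 fold change of 0.50. BNIP3L, the mitophagy receptor related to BNIP3, measured 10.2, 16.8 and 20.9 FPKM at 2 h and 169, 174 and 169 at 24 h (log2 fold change 3.43 ± 0.36 (SE), adjusted p = 1.2e-05), and MXI1, an antagonist of MYC, measured 20.6, 18.6 and 22.7 FPKM at 2 h and 100.0, 134 and 157 at 24 h (log2 fold change 2.61 ± 0.15 (SE), adjusted p = 2.1e-07). Other called members, AK4, ERO1L, STC2, ANKZF1, HILPDA, FAM162A and PPFIA4, had log2 fold changes from 1.23 to 3.16, EGLN1 and PFKFB4 had 1.47 and 4.0, KDM3A and P4HA2 are described with their enzyme classes, and HILPDA lies at a locus with 4 names. PPFIA4 was at 1.03, adjusted p = 0.0013 when only transcripts that Cufflinks matched to an annotated one (class code = alone) were summed.

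Of the 5 HIF targets that were not called, MAFF had reached its 24 h range by 2 h, and in BHLHE40 and DDIT4 2 h replicate 3 stood far above the other 2 h libraries. BHLHE40, a transcriptional repressor, measured 2.68, 4.18 and 6.42 FPKM at 0 h, 23.8, 31.4 and 182 at 2 h and 97.2, 101 and 105 at 24 h, so that 2 h replicate 3 exceeded every 24 h library (adjusted p = 0.25 for 24 h against 2 h). DDIT4, an inhibitor of mTORC1 signalling, measured 71.7, 126 and 537 FPKM at 2 h and 801, 863 and 751 at 24 h; all 24 h libraries were higher, and the adjusted p was 0.025. Both were called without 2 h replicate 3, BHLHE40 at 1.87, adjusted p = 0.008 in place of 0.96 and DDIT4 at 3.08, adjusted p = 0.003 in place of 2.24. BHLHE40 moved the other way without 2 h replicate 1 (0.41, adjusted p = 0.66) or 2 h replicate 2 (0.61, adjusted p = 0.54). CA12, another carbonic anhydrase, and PFKFB3 had log2 fold changes of 0.98 and 0.84, just under the threshold, and CA12 was called without 24 h replicate 1 (1.22, adjusted p = 0.0018) or 2 h replicate 3 (1.09, adjusted p = 0.0084).

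The windows below are shown because the ACGTG core is what HIF is known to bind. Promoters, 250 bases before to 50 after each start site, were taken from RefSeq (GRCh38.p14) and searched on both strands for ACGTG, whose reverse complement is CACGT and which also lies inside the E-box CACGTG. Of the 29 tested HIF targets 24 had a promoter in the table, and 14 of these (58.3%) held the word, against 21.6% of all 27305 promoters and 27.2% of the 10102 tested genes that matched. Among late-only genes it was held by 28.2% of 546 promoters of the higher and 30.8% of 783 of the lower genes. ENO2 and ALDOC, enzymes of glycolysis, and PLOD2, a collagen lysyl hydroxylase, are shown with 5 HIF targets; each window has 30 bases, 5′ to 3′ on the gene's strand, with the match in capitals.
ALDOC (chr17:28576906-28576935, minus strand): ccccggaggagtCACGTagctctgcgacat
ENO2 (chr12:6914450-6914479, plus strand): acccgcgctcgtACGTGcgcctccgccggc
PLOD2 (chr3:146161313-146161342, minus strand): caaacagtccagACGTGgggcccaggaggg
BNIP3 (chr10:131982039-131982068, minus strand): cgcacgcgccgcACGTGccacacgcacccc
P4HA1 (chr10:73096935-73096964, minus strand): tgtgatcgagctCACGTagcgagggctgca
EGLN1 (chr1:231422283-231422312, minus strand): gggccgtggtgtACGTGcagagcgcgcaga
CA9 (chr9:35673898-35673927, plus strand): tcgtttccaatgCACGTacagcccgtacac
ANKRD37 (chr4:185396686-185396715, plus strand): cagtgtttgtgtACGTGcggccgtggcggg
A match is a description of letters and not evidence of binding. KDM3A, EGLN3, PDK1 and CXCR4, all called higher, had no ACGTG in this window. Of the HIF targets not called, BHLHE40, MAFF and DDIT4 held the word, and CA12 and PFKFB3 did not.

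The second promoter word of the element, GCGTG, is common in promoters of any kind and was held by 54.2% of the HIF list, 51.7% of the tested genes that matched, 43.8% of the late-only higher and 60.8% of the late-only lower genes.

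The 12 genes with the largest rises, among those at a mean of at least 5 FPKM whose libraries did not overlap, had log2 fold changes from 3.48 to 5.64. The first of them, CTD-2012J19.2 (GRCh37 chr5:1598242-1598362), is an annotated pseudogene of 121 bases that was listed at 0 in all 9 libraries up to 2 h and measured 19.0, 21.0 and 36.2 FPKM at 24 h; transcripts this short have unstable FPKM. ALDOC (GRCh37 chr17:26900133-26903966), the aldolase of brain, measured 3.62, 3.61 and 18.0 FPKM at 2 h and 197, 197 and 195 at 24 h (log2 fold change 4.86 ± 0.52 (SE), adjusted p = 1.3e-05). LOXL2, a lysyl oxidase that crosslinks collagen, measured 1.21, 1.74 and 4.44 FPKM at 2 h and 68.4, 58.5 and 72.1 at 24 h (log2 fold change 4.64 ± 0.40 (SE), adjusted p = 3.3e-06). CXCR4, the receptor of the chemokine CXCL12, measured 0.157, 0.0217 and 0.499 FPKM at 2 h and 14.6, 8.44 and 5.58 at 24 h (log2 fold change 3.74 ± 0.33 (SE), adjusted p = 3.5e-06). In ALDOC and LOXL2 2 h replicate 3 was again the highest of its group, and the 24 h libraries lay close together. In CXCR4 the 24 h libraries spread more than 2-fold. CTD-2012J19.2 passed the filter on low values through its 24 h libraries alone, so its direction was fixed by the filter. No 2 h library of CXCR4 was above the 0.5 FPKM of that filter.

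PFKFB4, which sets the level of the glycolytic activator fructose 2,6-bisphosphate, measured 2.91, 4.08 and 4.25 FPKM at 2 h and 55.4, 70.8 and 75.3 at 24 h (log2 fold change 4.0 ± 0.18 (SE), adjusted p = 5.9e-08). ENO2 (GRCh37 chr12:7022909-7032861), the neuronal enolase, measured 18.5, 19.8 and 23.2 FPKM at 2 h and 233, 235 and 288 at 24 h (log2 fold change 3.59 ± 0.12 (SE), adjusted p = 1.1e-08), and PLOD2 (GRCh37 chr3:145752926-145881512) measured 6.94, 7.35 and 11.5 FPKM at 2 h and 99.1, 106 and 91.0 at 24 h (log2 fold change 3.48 ± 0.17 (SE), adjusted p = 1.1e-07). Among long noncoding RNAs, UPK1A-AS1 measured 0.375, 1.11 and 2.77 FPKM at 2 h and 17.4, 24.7 and 16.1 at 24 h (log2 fold change 3.56 ± 0.45 (SE), adjusted p = 4.6e-05), and RP11-565A3.2 had a log2 fold change of 3.82. TNFRSF6B, a decoy receptor of Fas ligand, measured 7.47, 17.6 and 29.6 FPKM at 2 h and 192, 216 and 283 at 24 h (log2 fold change 3.80 ± 0.56 (SE), adjusted p = 1.5e-04), whereas RTEL1, the DNA helicase at the same Cufflinks locus, went from 7.78, 6.44 and 4.09 to 0.0378, 0 and 0.0716 FPKM (log2 fold change -3.58 ± 0.23 (SE), adjusted p = 5.2e-07). Reads at that locus, which carries 3 gene names, may have been divided between the genes, so both values are uncertain. ALDOC and ENO2 each lie at a locus with 5 names and PFKFB4 at one with 3, with the same limit.

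Of 11 HIF subunits and oxygen-sensing hydroxylases 10 passed the filter, HIF3A did not, and 3 were called higher and 1 lower. HIF1A, the best known oxygen-regulated alpha subunit, fell from 72.0, 62.9 and 74.8 to 28.4, 27.2 and 35.3 FPKM (log2 fold change -1.2 ± 0.12 (SE), adjusted p = 7.5e-06). EPAS1, which encodes HIF-2 alpha, rose from 6.04, 3.48 and 4.67 to 21.7, 16.6 and 19.9 FPKM (log2 fold change 1.95 ± 0.20 (SE), adjusted p = 1.2e-05). Both changed after 2 h, since their log2 fold changes at 2 h against 0 h were 0.20 and 0.04, and HIF1A shares its locus with 2 further names. Among the hydroxylases EGLN1, the main brake on HIF, rose from 26.3, 23.8 and 25.7 to 70.0, 71.3 and 70.8 FPKM (log2 fold change 1.47 ± 0.08 (SE), adjusted p = 2.1e-07), EGLN3 rose as given above, and EGLN2 had a log2 fold change of -0.86 without a call, which it gained without 2 h replicate 3 (-1.0, adjusted p = 1.3e-04). ARNT, the beta subunit, had 0.81, and VHL, HIF1AN, ARNT2 and ARNTL were not called and overlapped between the groups.

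Histone demethylases of the JmjC class also use oxygen as a substrate. Of 17 tested, 8 were called higher and 0 lower, and the list's median was 0.75. KDM3A, which removes methyl groups from H3K9, had risen by 2 h and measured 8.90, 8.82 and 10.8 FPKM at 0 h, 21.0, 18.4 and 21.4 at 2 h and 93.6, 102 and 110.2 at 24 h (log2 fold change 2.30 ± 0.12 (SE), adjusted p = 1.8e-07). KDM4B, which acts on H3K9 and H3K36, measured 3.89, 4.74 and 5.46 at 2 h and 27.6, 24.4 and 32.1 at 24 h (log2 fold change 2.46 ± 0.18 (SE), adjusted p = 1.3e-06). KDM6B, an H3K27 demethylase, measured 5.13, 4.56 and 4.78 FPKM at 2 h and 11.3, 11.2 and 11.7 at 24 h (log2 fold change 1.16 ± 0.12 (SE), adjusted p = 1.3e-05). In all 3 genes the 24 h libraries lay above every 2 h library; KDM4B was late only. The other called members were KDM4C, KDM5B, KDM5C, JHDM1D and JMJD6, with log2 fold changes from 1.02 to 1.47. JMJD6 fell just under the 2-fold threshold without 24 h replicate 1, 24 h replicate 2, 2 h replicate 2 or 2 h replicate 3, the lowest value being 0.93, adjusted p = 1.7e-04.

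Glycolysis changed late and nearly as a whole. Of 19 transporters and enzymes 15 were called higher and 0 lower, at a median of 1.36 (log2), and 10 of them were late only; the median at 2 h against 0 h had been 0.07. SLC2A1, the main glucose transporter, measured 72.0, 77.7 and 87.7 FPKM at 2 h and 335, 311 and 341 at 24 h (log2 fold change 2.05 ± 0.09 (SE), adjusted p = 4.5e-08). GPI, which converts glucose 6-phosphate to fructose 6-phosphate, measured 239, 247 and 279 FPKM at 2 h and 1490.4, 1365 and 1694 at 24 h (log2 fold change 2.57 ± 0.11 (SE), adjusted p = 4.5e-08). LDHA, which turns pyruvate into lactate, measured 1026, 996 and 973 FPKM at 2 h and 3227, 2809 and 2453 at 24 h (log2 fold change 1.49 ± 0.11 (SE), adjusted p = 1.4e-06). Their log2 fold changes at 2 h against 0 h lay between -0.22 and 0.22, and none overlapped between 2 h and 24 h. SLC2A3, another glucose transporter, and PGK1, phosphoglycerate kinase, had log2 fold changes of 3.03 ± 0.37 (SE) and 2.14 ± 0.09 (SE). The members not called were PFKM, the muscle phosphofructokinase (-0.11), TPI1 (0.34), PGAM1 (0.87) and the lactate exporter SLC16A3 (0.84), the figures in parentheses being log2 fold changes. GAPDH, ENO1, ALDOA and PKM have many processed pseudogenes, so part of their signal is uncertain.

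Collagen hydroxylases and lysyl oxidases, which modify collagen before and after secretion, had 5 of 9 tested members called higher and 1 lower, with a median of 1.39; LOX and P4HA3 lay below the filter. P4HA2 measured 18.4, 18.0 and 17.0 FPKM at 2 h and 64.6, 58.7 and 60.2 at 24 h (log2 fold change 1.75 ± 0.09 (SE), adjusted p = 1.2e-07). PLOD1 had a log2 fold change of 1.39, and LOXL3, the member called lower, one of -1.35 at a low level, 1.40, 1.66 and 1.48 FPKM at 2 h and 0.470, 0.194 and 0.223 at 24 h. With a pseudocount of 1 LOXL3 missed the 2-fold threshold (-0.96, adjusted p = 1.5e-04). The collagen gene COL1A1 itself measured 1.48, 1.88 and 2.07 FPKM at 2 h and 7.09, 5.32 and 4.28 at 24 h (log2 fold change 1.37 ± 0.23 (SE), adjusted p = 4.3e-04). COL1A1 was not called with class code = alone (1.12, adjusted p = 0.040).

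**Figure D2:**
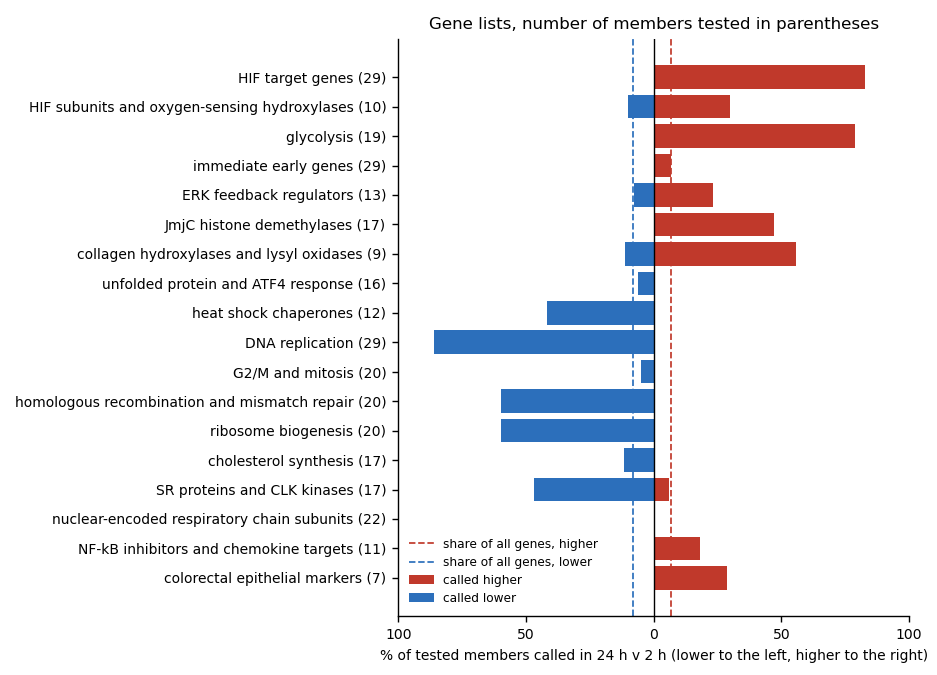
Share of the tested members of each gene list called higher (red, to the right) or lower (blue, to the left) in 24 h against 2 h, in percent; the number of tested members is in parentheses and the dashed lines mark 6.89% and 8.08%, the shares of all genes. HIF targets and glycolysis reach 82.8% and 78.9% on the right, DNA replication 86.2% on the left, and the respiratory chain has no bar.

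Genes of DNA replication were lower as a group at 24 h and had not moved at 2 h. Of 29 tested, 25 were called lower and 0 higher, 24 of them late only; the median log2 fold change was -1.40, and -0.02 at 2 h against 0 h. MCM10, which loads replication factors at origins, fell from 36.5, 36.0 and 30.3 to 6.97, 6.02 and 6.34 FPKM (log2 fold change -2.32 ± 0.13 (SE), adjusted p = 2.6e-07). PCNA, the sliding clamp of DNA polymerases, fell from 344, 335 and 331 to 142, 111 and 102 FPKM (log2 fold change -1.52 ± 0.12 (SE), adjusted p = 1.6e-06). CCNE2, the cyclin that drives entry into S phase, fell from 23.5, 25.3 and 20.6 to 3.2, 2.86 and 3.52 FPKM (log2 fold change -2.68 ± 0.13 (SE), adjusted p = 7.4e-08). In each the highest 24 h library was below the lowest 2 h library. All 6 subunits of the replicative helicase, MCM2 to MCM7, were called lower, with log2 fold changes from -1.70 to -1.02, and MCM7 missed the threshold without 24 h replicate 3 (-0.90, adjusted p = 1.2e-05) and under median-of-ratios scaling (-0.92, adjusted p = 1.0e-05). The members not called were CDT1, RRM1, TYMS and POLE, at -0.29, -0.73, -0.69 and -0.41. CDT1 is the member whose 2 h and 24 h libraries overlapped, since 33.3, 35.3 and 40.3 FPKM at 2 h stood against 33.4, 26.0 and 29.4 at 24 h.

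E2F factors are known to drive S-phase genes. The words TTTGGCGC, TTTCCCGC, TTTGCCGC and TTTCGCGC, forms of the E2F site, were searched on both strands in the same promoter windows, and examples are shown to set beside the HIF words. Of 24 replication promoters found there, 17 (70.8%) held one, against 3.33% of all 27305 promoters, 5.60% of the tested genes that matched, 9.83% of the late-only lower genes and 2.38% of the late-only higher genes. The capitals mark the match.
MCM2 (chr3:127598402-127598431, plus strand): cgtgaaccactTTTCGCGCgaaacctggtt
MCM3 (chr6:52284728-52284757, minus strand): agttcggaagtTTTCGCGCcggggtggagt
MCM7 (chr7:100101388-100101417, minus strand): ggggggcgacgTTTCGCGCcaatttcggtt
CDC6 (chr17:40287875-40287904, plus strand): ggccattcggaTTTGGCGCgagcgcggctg
PCNA (chr20:5126663-5126692, minus strand): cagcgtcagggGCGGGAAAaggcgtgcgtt
POLE2 (chr14:49688201-49688230, minus strand): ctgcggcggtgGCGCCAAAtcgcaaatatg
The E2F genes themselves were among the falls, E2F1 from 14.4, 17.6 and 14.4 to 7.38, 4.49 and 5.72 FPKM (log2 fold change -1.35 ± 0.16 (SE), adjusted p = 3.4e-05) and E2F2 at -1.40. MCM10, CCNE1, CDC45, RRM2, RFC4 and FEN1, called lower, had none of the words in this window. CDT1, TYMS and POLE, which were not called, each held one. The word CCAAT was in 58.3% of the replication promoters, 37.1% of the tested genes that matched, 40.7% of the late-only lower and 28.8% of the late-only higher genes.

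Genes of homologous recombination and mismatch repair followed the same course, with 12 of 20 called lower and 0 higher, a median of -1.15, and 11 late only. CLSPN, the checkpoint mediator claspin, fell from 24.1, 26.3 and 27.1 to 6.0, 4.12 and 5.02 FPKM (log2 fold change -2.26 ± 0.12 (SE), adjusted p = 2.1e-07). EXO1, an exonuclease of mismatch repair and recombination, fell from 30.2, 29.2 and 27.0 to 6.57, 5.73 and 6.51 FPKM (log2 fold change -2.11 ± 0.12 (SE), adjusted p = 2.1e-07). Neither gene overlapped between 2 h and 24 h, and their log2 fold changes at 2 h against 0 h were 0.02 and 0.18. BRCA1, BLM and MSH6 also fell, with log2 fold changes of -1.38, -1.33 and -1.06, while BRCA2, FANCA and PMS2 had -0.66, -0.59 and -0.76 and were not called, although PMS2 was without 24 h replicate 3 (-1.03, adjusted p = 1.4e-04). Of 20 G2/M and mitosis genes 1 was called lower, 5.00% beside 8.08% of all genes, and the median was -0.39. In 11 of the 20 every 24 h library lay below every 2 h library and in 0 above, beside 30.1% and 23.1% of all genes. That gene was CCNA2, cyclin A2, with 106, 75.7 and 86.5 FPKM at 2 h and 39.9, 46.9 and 43.2 at 24 h (log2 fold change -1.03 ± 0.14 (SE), adjusted p = 8.6e-05). CCNA2 missed the 2-fold threshold without 2 h replicate 1 (-0.90, adjusted p = 4.6e-04) or 24 h replicate 1 (-0.97, adjusted p = 5.3e-04). MKI67, the proliferation marker, measured 50.6, 45.2 and 44.7 FPKM at 2 h and 47.3, 40.0 and 51.6 at 24 h, and the groups overlapped.

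Ribosome biogenesis had 12 of 20 members called lower, 0 higher, all 12 late only, and a median of -1.14. NCL, the nucleolar protein nucleolin, fell from 1067, 973 and 953 to 337, 355 and 403 FPKM (log2 fold change -1.45 ± 0.12 (SE), adjusted p = 2.0e-06). UTP20, a factor of 18S rRNA processing, fell from 12.9, 10.3 and 8.88 to 1.59, 2.15 and 3.13 FPKM (log2 fold change -2.03 ± 0.23 (SE), adjusted p = 1.9e-05). POLR1A, the largest subunit of RNA polymerase I, fell from 14.2, 13.3 and 13.7 to 3.19, 3.2 and 6.55 FPKM (log2 fold change -1.64 ± 0.20 (SE), adjusted p = 4.3e-05). All 3 were separated between the groups. FBL, the rRNA methyltransferase fibrillarin, was the exception in that its groups overlapped, with 372, 363 and 353 FPKM at 2 h and 372, 356 and 322 at 24 h.

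The largest falls outside these lists were spread over several functions. RNY1 (GRCh37 chr7:148684228-148684340), a Y RNA of 113 bases, measured 83.6, 168 and 161 FPKM at 2 h and was listed at 0 in all 24 h libraries, but also at 0 in 1 of 3 libraries at 0 h and in 2 of 3 at 1 h, so it varied among libraries before 24 h as well. GPCPD1, a glycerophosphocholine phosphodiesterase, fell from 6.51, 7.91 and 8.10 to 0.471, 0.104 and 0.782 FPKM (log2 fold change -3.13 ± 0.23 (SE), adjusted p = 1.2e-06); it was -1.97, adjusted p = 2.0e-05 without a filter on low values. ODC1, the rate-limiting enzyme of polyamine synthesis, fell from 497, 426 and 337 to 61.7, 76.4 and 88.4 FPKM (log2 fold change -2.46 ± 0.18 (SE), adjusted p = 1.1e-06). ODC1 was the most abundant of the 12 largest falls, and its libraries at 2 h, though spread, did not approach those at 24 h. VPS9D1-AS1, an antisense long noncoding RNA, fell from 8.58, 8.28 and 8.01 to 0.950, 0.398 and 0.512 FPKM (log2 fold change -3.00 ± 0.17 (SE), adjusted p = 2.2e-07). The remaining ones were CHAC2, a glutathione-degrading enzyme (-2.83), SFXN2, a mitochondrial carrier (-2.81), TAF9B, a TFIID-related factor (-2.73), GPATCH4 (-2.57), GTF2H2C, which has a near-identical copy (-2.53), and FAM111B, a protease (-2.47), again as log2 fold changes.

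Heat shock chaperones had 5 of 12 members called lower and 0 higher, with a median of -0.85 at 24 h against 2 h and -0.39 at 2 h against 0 h; without 2 h replicate 3, 8 were called. HSPH1, a large chaperone of the HSP110 class, fell from 197, 148 and 138 to 76.6, 45.0 and 33.8 FPKM (log2 fold change -1.69 ± 0.25 (SE), adjusted p = 1.5e-04), and HSP90AA1, the inducible HSP90, fell from 2854, 2378 and 2309 to 1158, 1181 and 1001 FPKM (log2 fold change -1.17 ± 0.13 (SE), adjusted p = 2.3e-05). HSPA8, the constitutive HSP70, measured 2473, 2253 and 2177 FPKM at 0 h, 1703, 1326 and 1007 at 2 h and 539.9, 605 and 436 at 24 h (log2 fold change -1.33 ± 0.17 (SE), adjusted p = 5.8e-05), a decline over the whole course. In the unfolded protein and ATF4 list 1 of 16 tested members was called lower and 0 higher, with a median of -0.15, and VLDLR lay below the filter. That member was PSAT1, an enzyme of serine synthesis, which fell from 75.0, 78.6 and 126 to 17.7, 23.9 and 23.2 FPKM (log2 fold change -2.06 ± 0.21 (SE), adjusted p = 1.1e-05). DDIT3, the stress factor CHOP, measured 11.9, 15.6 and 36.5 at 2 h and 6.90, 43.9 and 19.8 at 24 h, a spread within each group larger than any difference. None of 22 nuclear-encoded respiratory chain subunits was called in either direction, at a median of -0.12 and with 13 of them separated between the groups (3 higher, 10 lower, beside 23.1% and 30.1% of all genes). The range was from -0.73 for SDHD to 0.72 for UQCRC1. Of 15 genes of NF-kB inhibitors and targets 11 were tested, CXCL2, CXCL3, CCL20 and TNF were below the filter, and NFKB2 and BIRC3 were called higher, with 1.24 and 1.08, at a list median of 0.30; BIRC3 was not called without 24 h replicate 3 (0.98, adjusted p = 0.011), 2 h replicate 1 (0.95, adjusted p = 0.015) or 2 h replicate 2 (0.99, adjusted p = 0.013). Of the 7 epithelial markers tested, KRT19 and CDH1 were called higher and 0 lower, at a median of -0.01. CDH1, E-cadherin, measured 7.39, 5.80 and 7.40 FPKM at 2 h and 21.2, 23.4 and 26.3 at 24 h (log2 fold change 1.72 ± 0.15 (SE), adjusted p = 3.0e-06). KRT20, a keratin of differentiated colon epithelium, measured 0.488, 0.413 and 0.582 FPKM at 2 h and 0.107, 0.0543 and 0.0306 at 24 h, and EPCAM 354, 280.2 and 263 and 213, 245 and 229; in both every 24 h library was below every 2 h library, without a call. KRT19 (1.04 as reported) was not called with TPM (0.96, adjusted p = 1.1e-05), without 24 h replicate 3 or without 2 h replicate 1, and with TPM KRT20 (-0.82 as reported) was called lower (-1.06, adjusted p = 0.0022). KRT20 was also called lower with a pseudocount of 0.1 (-1.87, adjusted p = 0.0016), and with a pseudocount of 1 it was at -0.49, adjusted p = 0.0047.

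SR splicing factors and the CLK and SRPK kinases that phosphorylate them had 8 of 17 members called lower and 1 higher, with a median of -0.98 and no call at 2 h against 0 h. SRSF2 fell from 252, 253 and 219.8 to 63.7, 71.7 and 70.4 FPKM (log2 fold change -1.81 ± 0.12 (SE), adjusted p = 8.1e-07), SRSF7 had a log2 fold change of -1.65 and TRA2B one of -1.18. The member that rose was CLK3, from 29.8, 30.3 and 31.9 to 86.2, 69.2 and 66.3 FPKM (log2 fold change 1.25 ± 0.12 (SE), adjusted p = 7.3e-06). Their isoforms changed too. The noncoding share is the percentage of a gene's FPKM on transcripts that GENCODE types as nonsense-mediated decay, retained intron or other noncoding. Over the 5768 genes with such isoforms and enough signal, this share was higher in every 24 h library than in every 2 h library for 1079 genes (18.7%) and lower for 481 (8.34%). Of the 17 splicing genes 10 were separated upward and 1, CLK3, downward, with a median change of 10.0 percentage points against 1.08 for all genes. At 2 h against 0 h the figures had been 0 upward and 3 downward, beside 5.91% and 9.36% of all genes.

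SRSF1 had a noncoding share of 2.88, 3.85 and 2.84% in the 2 h libraries and of 38.9, 49.8 and 38.6% in the 24 h libraries. SRSF2 had 17.3, 20.8 and 19.6% at 2 h and 45.5, 47.0 and 33.2% at 24 h, and SRSF5 had 13.3, 19.6 and 15.7% and 40.6, 41.8 and 45.9%. At 0 h these shares had been 6.20, 7.87 and 3.04% for SRSF1, 21.9, 19.0 and 20.2% for SRSF2 and 17.9, 18.3 and 17.2% for SRSF5, so the higher level appeared between 2 h and 24 h. CLK4 took another course, with 53.5, 48.1 and 44.4% at 0 h, 19.7, 30.4 and 12.8% at 2 h and 42.1, 40.2 and 38.2% at 24 h, that is a low share at 2 h. Retained-intron transcripts alone gave 776 genes upward (24.5% of 3167) and 186 downward (5.87%), and 8 of 14 splicing genes upward and 1, CLK3, downward. At 2 h against 0 h, 3 of the 14 had been upward and 1 downward, beside 7.45% and 9.54% of all genes. FPKM of isoforms of 1 gene are estimated jointly from shared reads, so these shares carry an error that the spread of 3 libraries shows only in part.

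**Figure D3:**
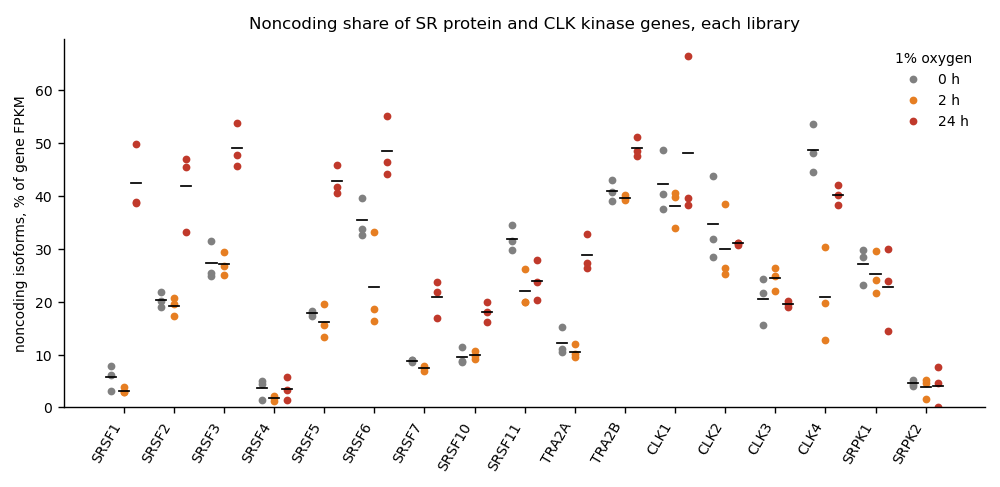
Noncoding share of each SR protein, TRA2, CLK and SRPK gene in percent of its FPKM (vertical axis), 1 point per library at 0 h (grey), 2 h (orange) and 24 h (red), with the mean of 3 as a bar. In SRSF1 the 24 h libraries lie between 38.6% and 49.8% and the 2 h libraries between 2.84% and 3.85%, while in CLK2, SRSF11 and SRPK1 the groups overlap.

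The transcript with the highest FPKM in every 2 h library differed from that in every 24 h library in 246 of 10680 genes with several transcripts (2.3%). PFKFB3, MXI1 and GAR1, none of them a splicing gene, were among these and were chosen after their values were seen. At PFKFB3, a regulator of glycolysis, the coding transcript that led at 24 h made up 8.29% ± 2.62 of the FPKM in the 2 h group and 53.3% ± 4.42 in the 24 h group (SD over 3 libraries). At MXI1 the transcript leading at 24 h made up 12.1% ± 8.74 of the FPKM in the 2 h group and 35.9% ± 7.70 in the 24 h group (SD over 3 libraries), and at GAR1, a protein of box H/ACA particles, 41.7% ± 1.92 of the FPKM in the 2 h group and 58.2% ± 1.68 in the 24 h group (SD over 3 libraries).

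The early response was small by the same test, in a fit without the replicate number. At 2 h against 0 h 5 genes were called higher, 0.0317% of those tested, and 0 lower, with 2360 genes at an unadjusted p under 0.05. Same-numbered libraries of 0 h and 2 h deviated together, and with the replicate number as a block 18 genes were called. Without 2 h replicate 3 the calls were MAFF, 1 of the 5, and ANKRD37, without 24 h replicate 2 MAFF alone was called, and without 2 h replicate 1 or any one of the 0 h libraries 0 genes were. The 5 were MAFF, PIM1, SPRY1, ERRFI1 and KDM3A, and each was also called higher at 24 h against 0 h, so all 5 were kept (17 of 18 with the block). MAFF, a small MAF transcription factor, measured 6.53, 6.68 and 5.77 FPKM at 0 h, 13.2, 10.6 and 11.8 at 1 h, 23.4, 17.8 and 25.7 at 2 h and 22, 29.4 and 27.4 at 24 h. It had reached its 24 h range by 2 h, and the 2 h and 24 h libraries overlapped (log2 fold change 0.24 ± 0.15 (SE), adjusted p = 0.22, 24 h against 2 h). SPRY1, an inhibitor of receptor tyrosine kinase signalling, measured 0.651, 0.657 and 0.609 at 0 h, 1.98, 2.44 and 3.30 at 2 h and 13.2, 13.5 and 14.3 at 24 h (log2 fold change 2.23 ± 0.18 (SE), adjusted p = 1.9e-06). ERRFI1, a feedback inhibitor of the EGF receptor, measured 186, 182 and 185 FPKM at 0 h, 379, 339 and 482 at 2 h and 1022, 1197 and 1155 at 24 h (log2 fold change 1.5 ± 0.13 (SE), adjusted p = 3.0e-06). PIM1, a serine/threonine kinase, measured 3.70, 4.29 and 4.73 FPKM at 0 h, 13.6, 9.96 and 16.2 at 2 h and 23.4, 22.1 and 21.7 at 24 h (log2 fold change 0.76 ± 0.16 (SE), adjusted p = 0.0021). SPRY1, ERRFI1 and KDM3A were thus called a second time between 2 h and 24 h, and PIM1 lay higher in every 24 h library but under the 2-fold threshold.

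Both sides of the early response were wider at a looser threshold, chosen after the values were seen: at an adjusted p under 0.05 with no limit on the fold, 42 genes differed between 2 h and 0 h, 30 higher and 12 lower, and 14 of these remained without 2 h replicate 3. With the fold limit kept, that adjusted p gave 18 higher (0.114%) and 6 lower (0.0381%). Of the 30, 17 were further higher at 24 h against 2 h at an adjusted p under 0.01, 12 were not past that level and 1 was lower, beside 14.2% of all genes higher and 21.1% lower at the same level with no fold limit. Of the 12 lower genes 10 were not past that level, 2 were higher again and 0 further lower. Without 2 h replicate 3, 17 of the same 30 were further higher and 0 lower, and of the same 12, 1 was higher again and 2, HSPA1A and HSPA1B, were further lower. The 2 h libraries enter both comparisons, so a 2 h mean that is too high by its own spread raises the one and lowers the other. Of the genes that held their early level, BTG1, an antiproliferative gene, measured 7.40, 7.64 and 9.00 FPKM at 0 h, 24.7, 16.3 and 33.3 at 2 h and 29.5, 32.3 and 35.1 at 24 h, and MAT2A, which makes S-adenosylmethionine, measured 183, 163 and 166 FPKM at 0 h, 79.8, 102 and 69.5 at 2 h and 98.7, 80.6 and 83.7 at 24 h. In both the groups at 2 h and 24 h overlapped, and the 0 h libraries lay below them in BTG1 and above them in MAT2A. PNRC1, a nuclear receptor coactivator, measured 2.39, 3.04 and 4.17 FPKM at 0 h, 16.1, 10.4 and 29.5 at 2 h and 72.1, 68.5 and 69.2 at 24 h and was called higher again (log2 fold change 2.00 ± 0.36 (SE), adjusted p = 6.6e-04). The word TGACGTCA, the site of CREB and ATF factors, which is its own reverse complement, was in 5 of 34 promoters of these 42 genes (14.7%), against 3.38% of the tested genes that matched.

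**Figure D4:**
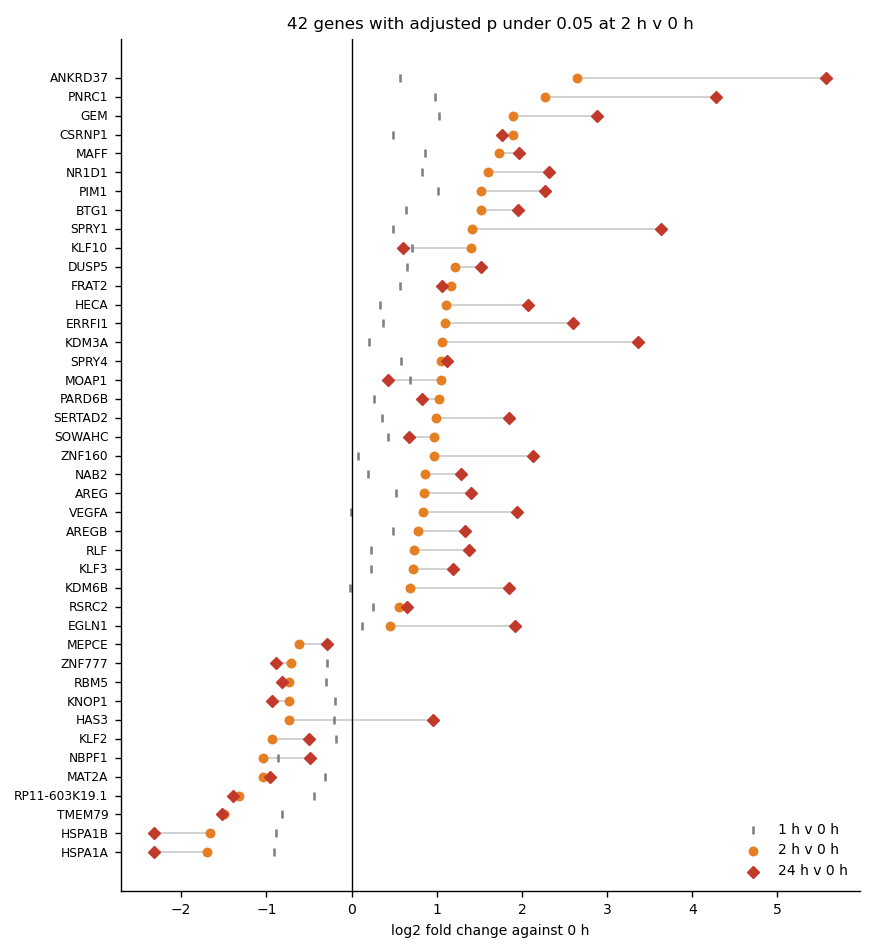
Log2 fold change against 0 h (horizontal axis) of the 42 genes with an adjusted p under 0.05 at 2 h, at 1 h (grey ticks), 2 h (orange circles) and 24 h (red diamonds); a line joins 2 h and 24 h. Of the 30 genes higher at 2 h, 17 are further right at 24 h at an adjusted p under 0.01, and KLF10 and MOAP1 are among those further left. Of the 12 genes lower at 2 h, HAS3 crosses zero.

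Of the 5 early calls 0 were called in the opposite direction at 24 h against 2 h, and 0 lacked a call at 24 h against 0 h. With the block 0 of 18 were called in the opposite direction and 1, MAT2A, lacked a call at 24 h against 0 h. With an adjusted p under 0.05 in each comparison and the fold limit kept these counts were 0 and 5 of 24, the 5 being KLF10, MAT2A, MOAP1, NBPF1 and PARD6B. The gene called at 1 h, RNVU1-16, a small nuclear RNA of 165 bases (0.00635% of the genes), measured 3.73, 3.35 and 1.5 FPKM at 1 h and was listed at 0 in the other 9 libraries. RNVU1-16 thus passed the filter on low values through its 1 h libraries alone. Among the 42 genes, however, MOAP1, a BAX-associated apoptosis gene, measured 6.11, 5.25 and 5.50 FPKM at 0 h, 12.6, 9.84 and 14.4 at 2 h and 7.18, 8.04 and 7.91 at 24 h (log2 fold change -0.62 ± 0.16 (SE), adjusted p = 0.0076); without 2 h replicate 3 that fall was -0.50, adjusted p = 0.034, and its early rise had an adjusted p of 0.11. HAS3, a hyaluronan synthase, ran the other way with 15.4, 12.1 and 14.9 FPKM at 0 h, 8.22, 8.16 and 8.36 at 2 h and 25.6, 25.7 and 32.0 at 24 h (log2 fold change 1.69 ± 0.12 (SE), adjusted p = 1.2e-06), and MEPCE, the capping enzyme of 7SK RNA, had a log2 fold change of 0.33 after an early one of -0.61. Without 2 h replicate 3 the later change of MEPCE was 0.29, adjusted p = 0.032, and the early adjusted p was 0.095 for MEPCE and 0.12 for HAS3, whose later change became 1.69, adjusted p = 7.1e-06. Counting transcripts of class code = alone gave HAS3 3.19, adjusted p = 1.5e-04, and MEPCE 0.62, adjusted p = 5.7e-04. The 2 h libraries of all 3 lay outside the range of both other groups, below them in HAS3 and MEPCE as in 2.8% of all genes. HAS3 ended above its 0 h level, with a log2 fold change of 0.95 at 24 h against 0 h, and its leading transcript at 24 h made up 12.9% ± 11.2 of the FPKM in the 2 h group and 41.5% ± 2.89 in the 24 h group (SD over 3 libraries).

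At a still looser early limit, an unadjusted p under 0.05 and an absolute log2 fold change above 0.5, also chosen after the values were seen, 470 genes were higher and 542 lower at 2 h, and 67 of these 1012 were called in the opposite direction between 2 h and 24 h: 23 that had been higher (4.89% of the 470, beside 8.08% of all genes called lower) and 44 that had been lower (8.12% of the 542, beside 6.89% called higher). These shares lie below or near those of all genes. They became, without 2 h replicate 3, 27 of 376 (7.18%, beside 9.14%) and 60 of 376 (16.0%, beside 7.40%). GPR3, a receptor that raises cyclic AMP, measured 2.05, 2.09 and 1.99 FPKM at 0 h, 4.58, 3.11 and 5.54 at 2 h and 0.587, 0.685 and 1.13 at 24 h (log2 fold change -1.91 ± 0.22 (SE), adjusted p = 2.5e-05). SLC19A2, a thiamine transporter, measured 7.62, 7.21 and 6.90 FPKM at 0 h, 15.7, 11.4 and 10.5 at 2 h and 5.81, 5.72 and 5.94 at 24 h (log2 fold change -1.02 ± 0.17 (SE), adjusted p = 4.4e-04). CENPQ, a kinetochore protein, measured 17.1, 14.8 and 14.9 FPKM at 0 h, 24.7, 22.3 and 21.4 at 2 h and 7.58, 10.4 and 6.07 at 24 h (log2 fold change -1.48 ± 0.16 (SE), adjusted p = 1.3e-05). All 3 were highest at 2 h with no overlap, and by 24 h they lay below every 0 h library; SLC19A2 missed the 2-fold threshold without 2 h replicate 1 (-0.85, adjusted p = 0.0023). Of the 44 that dipped, HSF4, a heat shock factor, measured 2.56, 3.44 and 1.78 FPKM at 0 h, 1.25, 0.837 and 1.36 at 2 h and 8.97, 8.82 and 9.82 at 24 h (log2 fold change 2.57 ± 0.20 (SE), adjusted p = 1.8e-06). BANP, a nuclear matrix protein, measured 10.9, 11.2 and 9.45 FPKM at 0 h, 7.23, 4.77 and 5.07 at 2 h and 13.2, 14.6 and 10.4 at 24 h (log2 fold change 1.11 ± 0.17 (SE), adjusted p = 1.8e-04), and ZNF692, a zinc finger factor, measured 18.7, 20.4 and 18.4 FPKM at 0 h, 13.7, 12.7 and 8.30 at 2 h and 27.9, 21.9 and 22.1 at 24 h (log2 fold change 1.04 ± 0.17 (SE), adjusted p = 3.7e-04). HSF4 rose beyond its starting level, whereas BANP and ZNF692 had log2 fold changes of 0.26 and 0.31 at 24 h against 0 h. ZNF692 missed the 2-fold threshold without 24 h replicate 1 (0.93, adjusted p = 0.002) or 2 h replicate 3 (0.83, adjusted p = 6.6e-04).

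Several immediate early genes were higher at 2 h than before and after. For 7 of 29, namely FOSB, EGR1, EGR3, KLF10, NR4A1, CYR61 and SRF, all 2 h libraries lay above every 0 h and every 24 h library, 24.1% beside 4.27% of all genes; without 2 h replicate 3 the share of all genes was 7.29%, and that of the list did not change. EGR1, a zinc finger factor of the serum response, measured 9.43, 10.4 and 12.2 FPKM at 0 h, 86.4, 72.7 and 332 at 1 h, 52.8, 38.0 and 206 at 2 h and 20.8, 30.4 and 32.4 at 24 h. NR4A1, an orphan nuclear receptor, measured 7.84, 6.98 and 6.10 FPKM at 0 h, 13.4, 8.26 and 16.6 at 1 h, 17.9, 13.0 and 47.7 at 2 h and 9.75, 10.3 and 11.1 at 24 h. KLF10, a TGF-beta-inducible repressor, measured 25.5, 29.1 and 31.3 FPKM at 0 h, 47.0, 42.2 and 52.4 at 1 h, 61.2, 55.1 and 131 at 2 h and 39.6, 42.6 and 49.5 at 24 h. EGR1 had higher values at 1 h than at 2 h under each replicate number. In each gene 2 h replicate 3 was far above its group. The falls to 24 h were not called: the log2 fold changes were -1.43 ± 0.60 (SE), -1.07 ± 0.37 (SE) and -0.80 ± 0.25 (SE) with adjusted p of 0.065, 0.031 and 0.02. Without 2 h replicate 2 NR4A1 (-1.45, adjusted p = 0.0065) and KLF10 (-1.03, adjusted p = 0.0067) were called. The falls were smaller without 2 h replicate 3, at -0.70, adjusted p = 0.27 for EGR1, -0.54, adjusted p = 0.093 for NR4A1 and -0.40, adjusted p = 0.028 for KLF10. As a list, 2 of 29 were called higher at 24 h against 2 h (6.90%) and 0 lower, beside 6.89% and 8.08% of all genes. The median log2 fold change was -0.11, and it became 0.18 with 5 called higher without 2 h replicate 3. The 2 called genes were KLF4, a factor of epithelial differentiation, which rose from 7.10, 5.95 and 9.18 to 47.1, 37.7 and 31.7 FPKM (log2 fold change 2.32 ± 0.17 (SE), adjusted p = 1.3e-06), and the FOS family member FOSL2, which rose from 10.9, 12.2 and 15.0 to 44.8, 42.7 and 42.6 (log2 fold change 1.75 ± 0.13 (SE), adjusted p = 1.6e-06). FOS itself measured 2.01, 1.83 and 1.99 FPKM at 0 h, 7.46, 4.87 and 15.7 at 2 h and 8.74, 7.22 and 4.99 at 24 h, with overlap between the last groups.

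ERK feedback regulators are described next. Of 13, DUSP1, DUSP4 and ERRFI1 were called higher and DUSP2 lower, with a median of 0.36, beside 6.89% of all genes higher and 8.08% lower. In 7 of the 13 every 24 h library lay above every 2 h library and in 1 below, beside 23.1% and 30.1% of all genes. DUSP1, a phosphatase of MAP kinases, measured 4.46, 4.11 and 4.53 FPKM at 0 h, 8.19, 5.91 and 10.6 at 2 h and 31.7, 24.3 and 20.1 at 24 h (log2 fold change 1.58 ± 0.21 (SE), adjusted p = 7.5e-05), and DUSP2, a nuclear phosphatase of the same family, measured 8.88, 8.19 and 7.46 FPKM at 0 h, 11.7, 8.50 and 24.0 at 2 h and 1.82, 2.37 and 3.14 at 24 h (log2 fold change -2.27 ± 0.37 (SE), adjusted p = 3.0e-04). The 24 h libraries of DUSP2 lay below those of both earlier groups. Cholesterol synthesis had 2 of 17 members called lower, IDI1 among them, 11.8% beside 8.08% of all genes, and 0 higher, at a median of -0.45; 2 h replicate 3 was the highest 2 h library in all 17, and without it 1 was called lower and 1 higher. IDI1, isopentenyl diphosphate isomerase, measured 24.1, 24.1 and 38.2 FPKM at 0 h, 48.5, 38.5 and 95.5 at 2 h and 29.8, 27.4 and 20.3 at 24 h (log2 fold change -1.13 ± 0.30 (SE), adjusted p = 0.0077). IDI1 was highest at 2 h, but its call was lost in 6 of the 9 fits that left out 1 library, with values from -1.24, adjusted p = 0.013 without 24 h replicate 1 to -0.75, adjusted p = 0.024 without 2 h replicate 3.

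**Figure D5:**
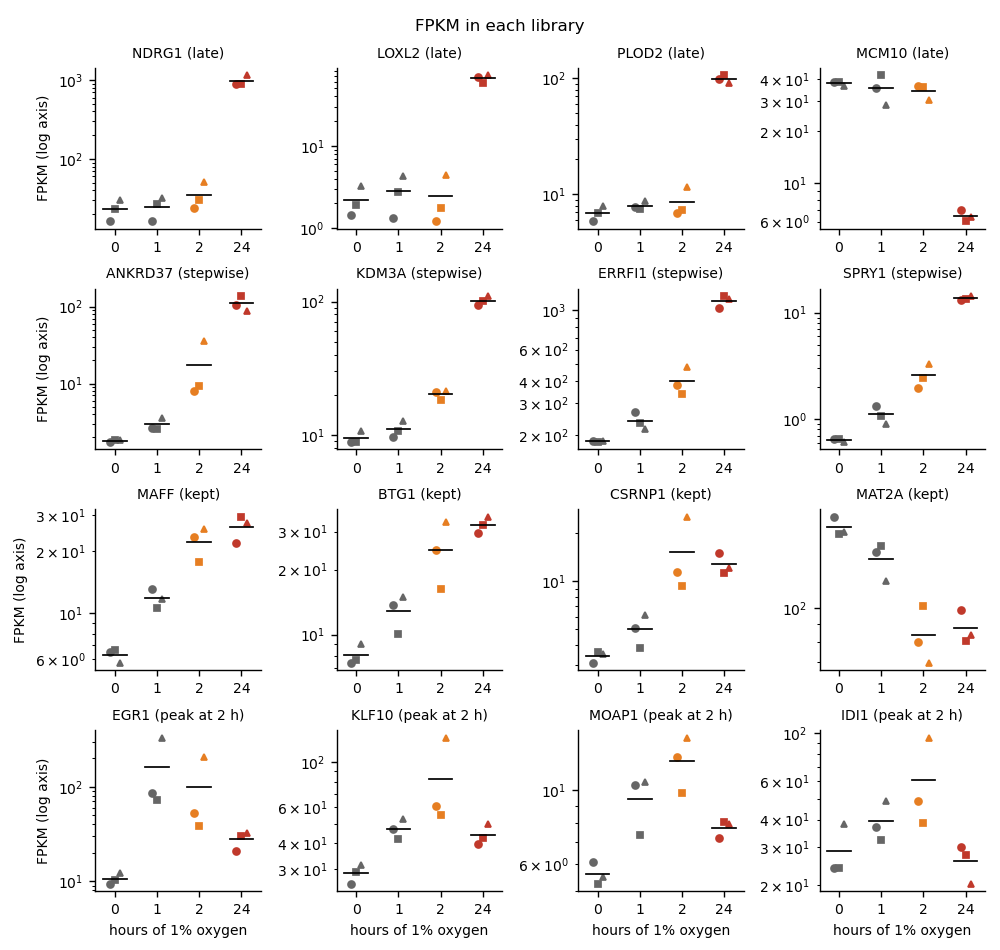
FPKM (log axis) of 16 genes in each library by hours of 1% O2; circles, squares and triangles are replicates 1, 2 and 3 and the bar is the mean. The top row shows late changes (NDRG1, LOXL2, PLOD2, MCM10), the second row rises at 2 h and again at 24 h, the third row levels reached by 2 h and held, and the bottom row genes highest at 1 h or 2 h, where the triangle of 2 h lies above the other 2 h points.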

How the data were processed

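Polyadenylated RNA of HCT116 cells was sequenced by the authors, and the deposited values are FPKM per transcript. Per the labels and the study's methods, base calls came from CASAVA, reads were aligned with MapSplice to hg19 and transcripts were assembled and quantified with Cufflinks and Cuffmerge against Ensembl genes. The deposited FPKM carry no read counts, so depth and counting error could not be computed from them, and every library is scaled to its own total.

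Transcripts with class code = or j (286562) were kept where FPKM exceeded 0.5 in at least 3 libraries (62162), and summed over each gene name, which gave 15758 genes. log2(FPKM + 0.5) was fitted over all 12 libraries and 4 time groups with limma 3.58.1 (R 4.3.3), lmFit and eBayes with a trend, two-sided, with Benjamini-Hochberg adjustment over all genes. Calls required a change of more than 1 on the log2 scale with an adjusted p below 0.01. Limma was used since an exact permutation test of 3 against 3 libraries cannot go below 0.1. The fitting procedure was tested on simulated data. Summaries and plots were made with the R package data.table, version 1.17.8, and with Python 3.11.15, pandas 2.3.3, numpy 2.4.6 and matplotlib 3.10.9.

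Genes were named by rule: the 12 largest rises and 12 largest falls among called genes with a mean of at least 5 FPKM in the higher group and no overlap between libraries, the early changes lost or kept, and examples from 19 gene lists. The members, lists and rule were chosen with earlier results of these data known, and the genes in the 42-gene and 67-gene sets were named after their values were seen. Lists are described by counts and medians; values of some list members are not reported here. Gene and transcript types came from GENCODE release 44 on GRCh37 coordinates and were found for 14674 of the genes. Noncoding shares were computed for genes with a mean of at least 1 FPKM on typed transcripts at 2 h and at 24 h.

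Replicate numbers come from the labels, which do not say what they share. Deviations from the group means correlated between same-numbered 0 h and 2 h libraries at 0.237, 0.113 and 0.333 for replicates 1, 2 and 3, so these may be pairs. The fit with the replicate number as a block is therefore given beside the early counts. Every other early value, p-value and gene set came from the fit without the block and leaves such a pairing out. P-values measure the spread between 3 libraries a group of 1 cell line, which the study calls biological replicates. Alternatives covered the filter, pseudocount, scaling, short transcripts, class code, block, threshold and each library left out.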

Additional observations from a re-analysis of the deposited data

How the results depend on the processing

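Over 19 alternative settings the 24 h against 2 h counts stayed within 1.5 times the reported ones, at 887 to 1288 genes higher and 1028 to 1601 lower. The share of calls that were higher, 46.0% as reported, ran from 38.9% with TPM over transcripts from 300 bases upward to 55.6% with median-of-ratios scaling, and the median of all genes from -0.14 to 0.01. With each library left out in turn the counts were 926 to 1166 higher and 1129 to 1441 lower. The late-only counts became 913 and 1066 without a limit on the early fold change.

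The early counts were less stable, and the cause was not tested. The 5 genes called at 2 h against 0 h became 3 with a filter on gene sums, 0 without a filter, 24 at an adjusted p under 0.05 with the fold limit kept, and 0 to 5 with 1 library left out. Early changes kept, 5 as reported, became 3, 0, 19 and 0 to 4 under the same settings. Early changes called in the opposite direction between 2 h and 24 h, 0 as reported, with the block and at an adjusted p under 0.05, became 67 under the definition added after seeing the data. The single gene called at 1 h became 0 without a filter, with a filter at 1 FPKM, with a pseudocount of 0.1, with TPM, without transcripts under 300 bases, with the block, and in every fit that left out a library.

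With the replicate number as a block, 1118 genes were called higher and 1298 lower at 24 h against 2 h, 2348 of them shared with the reported 2359. Deviations of same-numbered 2 h and 24 h libraries correlated at -0.00081, 0.0939 and 0.144, and of the 2 h libraries replicate 3, but neither replicate 1 nor replicate 2, correlated best with its own number, so these libraries share only a number and no pairing was assumed. The block gave 18 calls at 2 h against 0 h and 17 early changes kept, and of the other counts over all genes moved that at 1 h alone by over 1.5 times. In the lists it gave 25 HIF targets higher (DDIT4 added), 3 immediate early genes higher (ID1 added) and 1, EGR3, lower, and 1 cholesterol synthesis gene, SREBF2, higher, and left the other list counts as reported.

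Of 122 log2 fold changes named for 24 h against 2 h, 0 changed sign over these 19 settings, 102 kept their side of the threshold in all of them, 12 called genes lost the call in at least 1 and 8 genes gained one; the losses included COL1A1 with class code = alone and MSH6 with median-of-ratios scaling. In 14 of the 122 at least 1 setting moved the value by over 1.5 times, 8 of them past the 2-fold threshold as reported: EGR1, NR4A1 and IDI1 without 2 h replicate 3, HAS3 and PPFIA4 with class code = alone, GPCPD1 with a filter on gene sums or none, and LOXL3 (-2.09) and RTEL1 (-5.49) with a pseudocount of 0.1. Read depth cannot be computed from FPKM, so its limits are not given here.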
